A study of Mus musculus with 6 samples.

Results

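The chemokine receptors of CD8+ T cells described here are 9 genes, Ccr2, Ccr4, Ccr7, Ccr9, Cxcr3, Cxcr4, Cxcr5, Cxcr6 and Cx3cr1. They were taken by gene symbol from a deposited table of read counts for 49315 genes, and each symbol stood on exactly 1 row. Bulk RNA sequencing had been done on total CD8+ T cells sorted from the lymph nodes that drain a B16F10 tumor, a transplantable mouse melanoma, in wild-type female C57Bl6/J mice. The labels give no age for the mice, and their cell line entry spells the tumor line B26F10. In the monotherapy group 3 mice received a single subcutaneous dose of HCW9218, which the series title describes as a complex of TGF-βRII and IL-15. In the combination group 3 mice received HCW9218 in the same way together with an antibody against PD1 given intraperitoneally. Treatment began when tumors had reached 50 to 100 mm3, and cells were taken on day 5. Every mouse analysed here had received HCW9218, so each comparison is of HCW9218 with anti-PD1 against HCW9218 alone, and no untreated mice enter it. The comparison asks how the added PD1 antibody changed the receptor transcripts of these cells. Numbered libraries are 1 per mouse, as far as the design text gives 3 mice a group. The p-values judge the difference between the groups against the spread between mice.

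Chemokine receptors are membrane proteins with several transmembrane helices that couple to inhibitory G proteins and steer cells along gradients of secreted chemokines. In lymph nodes, Ccr7 holds naive and central memory T cells within reach of Ccl19 and Ccl21, while Ccr2, Cxcr3, Cxcr6 and Cx3cr1 are found on activated and effector cells that enter inflamed tissue. Cxcr4 reads Cxcl12, Cxcr5 leads cells toward B cell follicles, Ccr9 is tied to the small intestine and Ccr4 to the skin. The receptors are cleared from the surface after use by G protein receptor kinases and arrestins, and RGS proteins shorten the G protein signal.

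Totals ran from 34568074 to 40101346 counts per library. The sorted cells carried CD8 T cell transcripts: Cd8a lay between 1421 and 1646 CPM (counts scaled to a common effective library total) in monotherapy and between 1440 and 1588 CPM in the combination, and Cd4 lay at 3.06 CPM or below in all 6 libraries. The melanocyte genes Dct and Tyrp1 set 2 libraries apart, with 582 and 743 summed counts in combination replicates 2 and 3, 1 count in monotherapy replicate 1 and 0 in the other 3 libraries. Without these 2 combination libraries, log2 fold changes were 2.38 for Ccr2, 0.90 for Cxcr3 and 1.26 for Cxcr4. The combination group is then replicate 1 alone, so these values are given without a test. In cells sorted and sequenced in bulk, a larger share of cells with a receptor and more of its RNA per cell cannot be told apart.

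With anti-PD1 added, 3 of the 9 receptors rose and 0 fell. Ccr2, Cxcr3 and Cxcr4 were higher, by 5.16-fold, 1.9-fold and 2.02-fold, and 6 receptors did not pass the test. The test was edgeR's quasi-likelihood F-test on counts, fitted to all 15142 genes that passed the filter on low counts, with a Benjamini-Hochberg adjusted p under 0.05. All 9 receptors passed that filter. Across all genes tested, 0.951% were called higher and 0.132% lower. By unadjusted p under 0.05, 4 receptors lay higher and 1 lower, beside 4.61% and 3.39% of genes tested, and no receptor was called lower by DESeq2 or limma-voom either. The median log2 fold change of the 9 was 0.54, beside 0.0 over all genes tested. In 4 receptors, Ccr2, Cxcr3, Cxcr4 and Cxcr5, the 3 combination libraries all lay above the 3 monotherapy libraries, as they did in 7.17% of genes tested. In none of the 9 did they all lie below, beside 7.54% of genes tested. Both comparisons of ranges are by CPM.

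**Figure D1:**
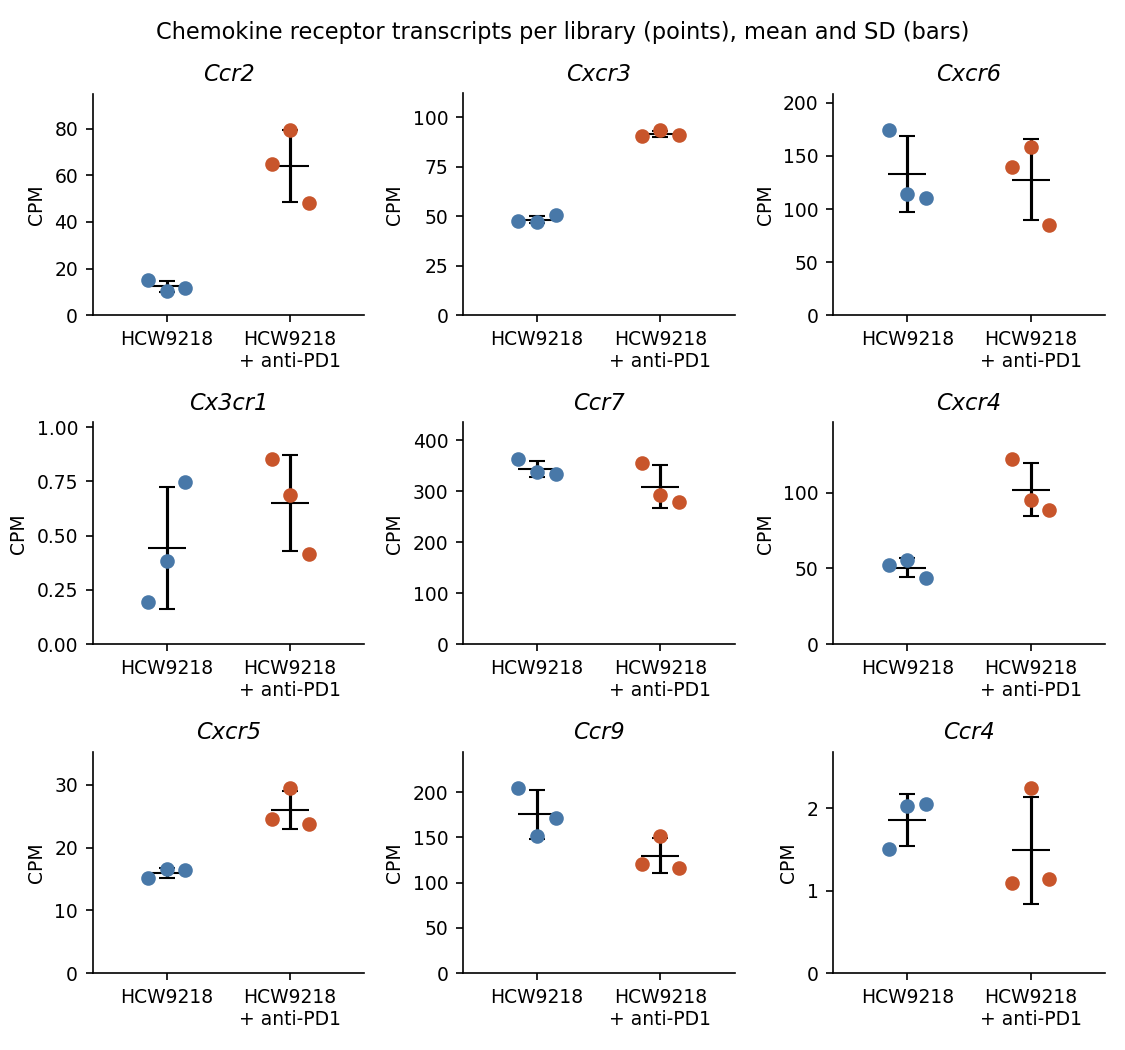
CPM of each receptor in every library (points, 3 per group), with the mean and SD of each group as bars; each panel has its own linear axis from 0. The groups do not overlap for Ccr2, Cxcr3, Cxcr4 and Cxcr5, and they overlap for the other 5.

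Among the receptors of activated and effector cells, Ccr2, a receptor for Ccl2 and related monocyte-attracting chemokines, differed most between the groups. It stood at 15.1, 10.5 and 11.6 CPM in monotherapy replicates 1, 2 and 3. In combination replicates 1, 2 and 3 it stood at 64.8, 79.3 and 48.0 CPM. Even the lowest combination library lay above every monotherapy library. Means were 12.4 ± 2.37 and 64.0 ± 15.6 CPM (SD, n = 3 each). The log2 fold change was 2.37 ± 0.21 (SE), with an adjusted p of 0.00351 in edgeR. Of 15142 genes tested Ccr2 ranked 2 by p and 12 by the size of its rise. Among the 17 alternative analyses that gave a test, including those without any one library, it passed in 17.

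Monocytes also carry Ccr2, and their transcripts were measured beside it. The 12 genes of the monocyte and macrophage list summed to 438 to 704 CPM in monotherapy and 365 to 775 CPM in the combination. Most of that was Ly6c2, which CD8 T cells also express. Without Ly6c2 the sum was 21.4 to 31.7 CPM and 20.5 to 22.5 CPM. In edgeR 0 of its 9 tested genes passed, and 0 passed in DESeq2 or limma-voom. At an unadjusted p under 0.05 there was 1, Fcgr3, an Fc receptor gene named after its values were seen. It lay higher in the combination, at 1.2, 0.483 and 0.796 CPM against 1.82, 1.93 and 1.4 CPM, with no overlap. Levels within the list differed widely. Over all libraries Cd68 lay between 6.22 and 9.95 CPM, Cebpb between 3.69 and 8.05 CPM and Lyz2 between 1.47 and 10.2 CPM. Cd14 and Adgre1 stayed at 0.217 CPM or below. The part of monocytes in the rise of Ccr2 was not tested. The NK cell list moved with Ccr2: 2 of its 7 genes rose, Klre1 and Gzma, and its sum went from between 123 and 140 CPM to between 184 and 219 CPM. Most of that was Eomes, which CD8 T cells also express, and without it the sum went from between 10.3 and 12.6 CPM to between 19.7 and 35.0 CPM. DESeq2 called 4 of the 7 higher (Klre1, Klra8, Eomes and Gzma) and limma-voom 2. None of the 7 NK genes was at 0. Of the 7, 6 had a log2 fold change above 0 and 1 below, Ncr1, which defines NK cells. Ncr1 stood at 0.362, 0.0508 and 0.265 CPM in monotherapy and 0.182, 0.29 and 0.13 CPM in the combination, with overlap. It had 2 to 13 counts per library, and its log2 fold change of -0.16 ± 0.71 (SE) did not pass in edgeR. The part of NK cells in the rise of Ccr2 was not tested.

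Ccr2 (ENSMUSG00000049103) lies on the plus strand of chromosome 9 at 124101950 to 124113557, in coordinates of GRCm38, within a cluster of chemokine receptor genes. Ccr9 begins 423.5 kb and Cxcr6 295.5 kb before it, by the counted gene models. Neither of these passed the test, nor did Xcr1, which begins 239.9 kb before Ccr2. Between Xcr1 and Ccr2, the genes Ccr1, Ccr1l1 and Ccr3 had at most 9, 1 and 4 counts in any library, too few to test.

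Cxcr3, the receptor for the interferon-induced chemokines Cxcl9 and Cxcl10 and a marker of type 1 effector and memory T cells, rose with little spread in CPM. Its values were 47.4, 47.0 and 50.5 CPM in the monotherapy libraries and 90.5, 93.3 and 90.9 CPM in the combination libraries. On that scale the 3 mice of each group lay close together, and the groups were far apart. The small spread depended on the scaling. Per exonic length and scaled to a common total (TPM), monotherapy libraries read 71.7, 79.0 and 86.7. The combination libraries read 115, 145 and 186 TPM, still without overlap. The means were 48.3 ± 1.89 and 91.6 ± 1.53 CPM (SD, n = 3 each). By edgeR the log2 fold change was 0.92 ± 0.12 (SE), adjusted p = 0.0068. The call was lost without monotherapy replicate 1, 2 or 3 (adjusted p 0.0652, 0.0715 and 0.0656 in edgeR), with log2 fold changes of 0.92, 0.90 and 0.95. Cxcr3 (ENSMUSG00000050232) lies on the minus strand of chromosome X at 101731535 to 101734269, and its exons overlap no other gene's.

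Cxcr6, which binds the membrane-anchored chemokine Cxcl16 and is carried by resident and exhausted CD8 T cells, did not pass the test. The monotherapy libraries gave 174, 114 and 110 CPM, and the combination libraries 140, 158 and 84.5 CPM. Both groups spread widely, and the lowest library of the 6 was combination replicate 3. Means were 133 ± 35.7 and 127 ± 38.3 CPM (SD, n = 3 each). The log2 fold change of -0.06 ± 0.25 (SE) did not pass in edgeR (adjusted p = 0.987). It changed sign without monotherapy replicate 1 (0.19) and without combination replicate 3 (0.17).

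Cx3cr1, the fractalkine receptor found on highly differentiated cytotoxic T cells, had the fewest counts of the 9. It had 7, 15 and 31 counts in monotherapy and 28, 26 and 16 in the combination. The exact 95% Poisson intervals of the lowest and highest of these were 2.8 to 14.4 and 21.1 to 44.0 counts, and they cover counting error only. Both are of monotherapy libraries and they do not overlap, so these mice differed by more than counting error. In CPM the values were 0.195, 0.381 and 0.748 against 0.851, 0.686 and 0.414, which overlap. The log2 fold change was 0.54 ± 0.54 (SE) with an adjusted p of 0.934 in edgeR, so it did not pass.

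Of the receptors that guide cells within lymphoid organs, Ccr7 was the most abundant of all 9 and did not pass the test. Monotherapy libraries held 362, 337 and 333 CPM and combination libraries 356, 292 and 278 CPM. In CPM combination replicate 1 lay within the monotherapy range, and replicates 2 and 3 lay below it. In TPM the monotherapy libraries read 479, 496 and 501 and the combination libraries 397, 396 and 498. On that scale combination replicate 3 lay within the range, and replicates 1 and 2 lay below it. Means were 344 ± 16.0 and 309 ± 41.6 CPM (SD, n = 3 each), with a log2 fold change of -0.16 ± 0.15 (SE) and an adjusted p of 0.932 in edgeR. Without combination replicates 2 and 3 the value was 0.04. Ccr7 (ENSMUSG00000037944) lies on the minus strand of chromosome 11 at 99144196 to 99155077.

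Cxcr4, the Cxcl12 receptor that takes part in bone marrow homing and retention, rose. Its levels were 52.0, 55.9 and 43.6 CPM in monotherapy and 122, 95.5 and 88.6 CPM in the combination. The lowest combination library was well above the highest monotherapy library. The group means were 50.5 ± 6.31 and 102 ± 17.4 CPM (SD, n = 3 each), the log2 fold change was 1.01 ± 0.16 (SE) and the adjusted p in edgeR was 0.019. The call was lost without monotherapy replicate 1, 2 or 3 (adjusted p 0.113, 0.0824 and 0.139), without combination replicate 2 (0.0631) and with B cell markers as a covariate (0.0999), all in edgeR, at log2 fold changes between 0.91 and 1.09. The melanocyte list of 8 genes summed to 21.9 to 28.7 CPM in monotherapy and 30.3 to 55.9 CPM in the combination. Most of that was Pmel in every library, and without Pmel the sum was 0.991 to 1.7 CPM in monotherapy and 1.22, 20.8 and 26.0 CPM in combination replicates 1, 2 and 3. In CPM Cxcr4 was highest in combination replicate 1, where Dct and Tyrp1 had 0 counts. In TPM its combination libraries read 148, 142 and 174, with replicate 3 the highest. With Dct and Tyrp1 as a covariate, the log2 fold change of Cxcr4 was 1.27. That covariate was high only in combination replicates 2 and 3, so the group difference in this fit rests mainly on combination replicate 1. The part of melanocyte transcripts in the rise of Cxcr4 was not tested.

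The 250 bases before the RefSeq start of Cxcr4 are shown because they lie directly before 1 of the 3 receptors that rose and carry recognisable promoter elements. They lie at chr1:128592300-128592549 of GRCm38.p6, minus strand, and read 5′ to 3′ toward the gene. Capitals mark letters of the motifs searched.
Cxcr4: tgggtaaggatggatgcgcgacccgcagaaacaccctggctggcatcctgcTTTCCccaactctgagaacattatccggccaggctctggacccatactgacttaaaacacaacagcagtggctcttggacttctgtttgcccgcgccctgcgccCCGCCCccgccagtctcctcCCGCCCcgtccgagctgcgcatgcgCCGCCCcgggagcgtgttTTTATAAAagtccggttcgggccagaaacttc
The motifs were the TATA element spelled TATAAA, the GC box GGGCGG, the AP-1 site TGACTCA, the NFAT core GGAAA and the T-box motif AGGTGT, each searched on both strands. Here TATAAA matched 2 times, at 32 and 30 bases before the start on opposite strands and overlapping each other. GGGCGG matched 3 times and GGAAA once. Of 32851 mouse promoters in the RefSeq table, 12.4% held TATAAA, 32.7% GGGCGG and 55.6% GGAAA in the same window. AGGTGT, bound by T-box factors such as Tbx21, occurred in 11.8% of promoters and in 0 of the 7 receptors with an entry, and TGACTCA, in 4.46% of promoters, occurred in Ccr4. Ccr7 and Cxcr5 were not matched.

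Cxcr5, the Cxcl13 receptor of follicular T cells and B cells, came close to the threshold. It stood at 15.1, 16.5 and 16.4 CPM in monotherapy and at 24.6, 29.4 and 23.8 CPM in the combination, and the groups did not overlap. The means were 16.0 ± 0.784 and 25.9 ± 3.01 CPM (SD, n = 3 each). With a log2 fold change of 0.70 ± 0.14 (SE) its adjusted p in edgeR was 0.0528, so it did not pass, and it passed in 7 of 17 tested alternatives, among them DESeq2 (adjusted p = 0.00195) and edgeR without combination replicate 1 or 3 (0.0389 and 0.0176). B cells carry Cxcr5 as well. The 10 genes of the B cell list summed to 46.3 to 69.3 CPM and to 49.6 to 89.3 CPM, with 1 of 10 called higher, Cd22, and 8 of 10 with a log2 fold change below 0. Without Cd22 the sum was 40.5 to 59.5 CPM in monotherapy and 27.3 to 63.1 CPM in the combination. With B cell markers as a covariate, the log2 fold change of Cxcr5 was 0.76 (adjusted p = 0.0999 in edgeR). Beyond that fit, the part of B cells in the difference in Cxcr5 was not tested.

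The gut receptor Ccr9, which binds Ccl25 and is also high on recent thymic emigrants and naive CD8 T cells, lay lower on average. Its libraries read 204, 151 and 171 CPM in monotherapy and 121, 152 and 116 CPM in the combination. In CPM the groups overlapped through 1 pair, monotherapy replicate 2 and combination replicate 2. The overlap depended on the scaling. In TPM the monotherapy libraries read 52.1, 42.8 and 49.5 and the combination libraries 26.0, 39.7 and 40.1, without overlap. Means were 175 ± 27.0 and 130 ± 19.2 CPM (SD, n = 3 each). The log2 fold change was -0.43 ± 0.16 (SE) and did not pass in edgeR (adjusted p = 0.467). Of the exonic bases of Ccr9, 2201 (21.5%) are shared with exons of Slc6a20a, Gm17200 or Gm17021. Gm17200 lies on the same strand as Ccr9, so strand cannot tell its reads apart in shared bases. Slc6a20a and Gm17021 lie on the opposite strand. As strand use in the counting is not stated, their reads cannot be told apart either.

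Ccr4, the receptor for Ccl17 and Ccl22, was low in every library. Counts were 54, 80 and 85 in monotherapy and 36, 85 and 44 in the combination, or 1.5, 2.03 and 2.05 CPM against 1.09, 2.24 and 1.14 CPM. The groups overlapped, and combination replicate 1 was the lowest. CD4 T cells commonly carry Ccr4. The 6 genes of the CD4 list summed to 35.5 to 42.2 CPM in monotherapy and 30.7 to 35.9 CPM in the combination. Most of that was Izumo1r in every library. All 6 had a log2 fold change below 0, with a median of -0.32. None of the 6 passed in edgeR, at an unadjusted p under 0.05 or in DESeq2 or limma-voom. Cd4 itself stood at 1.67, 3.0 and 3.06 CPM in monotherapy and 0.425, 2.11 and 1.24 CPM in the combination, with overlap. The part of CD4 T cells in the values of Ccr4 was not tested. The log2 fold change of Ccr4 was -0.32 ± 0.35 (SE), adjusted p = 0.939 in edgeR.

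**Figure D2:**
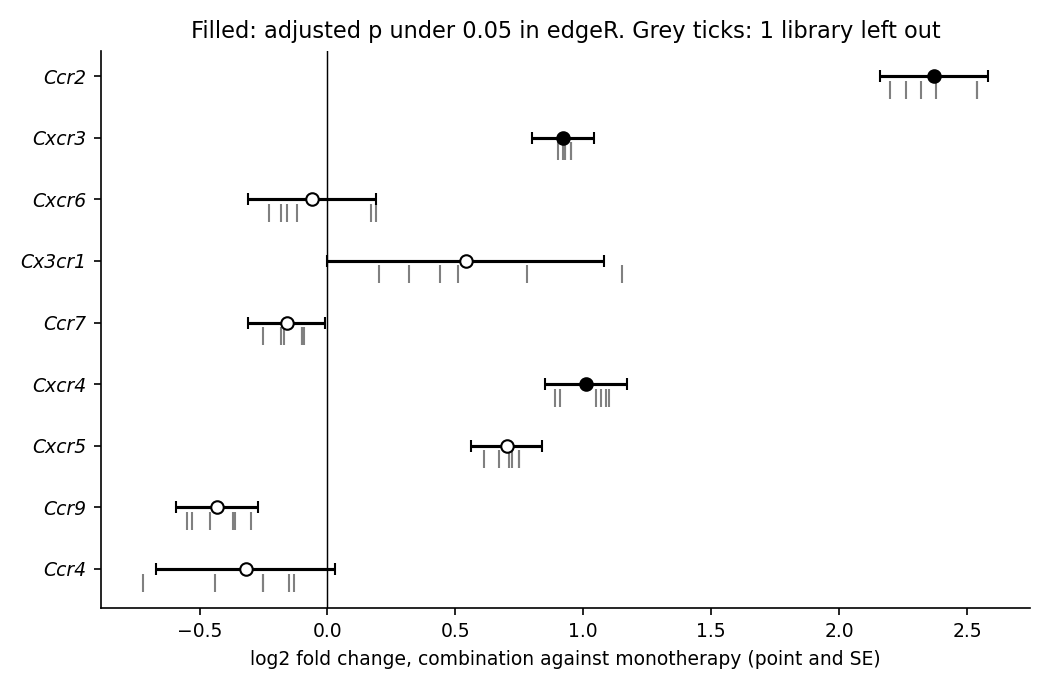
Log2 fold change of each of the 9 receptors (combination against monotherapy, 3 mice per group) with its SE from the edgeR fit. Filled points had an adjusted p under 0.05 in edgeR, and grey ticks are the values with 1 library left out. Ccr2, Cxcr4 and Cxcr3 stand at 2.37, 1.01 and 0.92, and Ccr9, at -0.43, has the lowest value.

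To compare one receptor with another, counts were divided by exonic length and scaled to a common total in each library (TPM). In monotherapy the order of mean TPM was Ccr7 (492 ± 11.2), Cxcr6 (193 ± 37.5), Cxcr3 (79.2 ± 7.49), Cxcr4 (79.1 ± 9.73), Ccr9 (48.1 ± 4.81), Cxcr5 (13.6 ± 1.55), Ccr2 (5.16 ± 0.648), Ccr4 (1.72 ± 0.388) and Cx3cr1 (0.285 ± 0.193), with the SD over 3 libraries. Every neighbouring pair in that order had separate ranges except Cxcr3 and Cxcr4. In the combination the order was Ccr7 (430 ± 58.7), Cxcr6 (178 ± 36.1), Cxcr4 (155 ± 16.8), Cxcr3 (149 ± 35.5), Ccr9 (35.3 ± 8.0), Ccr2 (25.9 ± 5.23), Cxcr5 (21.7 ± 4.83), Ccr4 (1.34 ± 0.584) and Cx3cr1 (0.384 ± 0.0502). There the ranges overlapped from Cxcr6 through Cxcr3 and again from Ccr9 through Cxcr5. Ccr2 thus stood below Cxcr5 in monotherapy and beside it in the combination. Parts of the order depended on the length used. With mean protein-coding transcript length, Ccr9 stood above Cxcr4 and Cxcr3 in monotherapy, and Cxcr4 above Cxcr6 in the combination. By CPM with no length, Ccr9 stood above Cxcr6 in both groups.

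The 9 receptors summed to 912 ± 18.9 TPM in monotherapy and 997 ± 110 TPM in the combination (SD, n = 3 each), and within that sum the makeup differed. Ccr7 made up 51.3, 55.0 and 55.6% of it in monotherapy and 44.9, 39.6 and 45.1% in the combination. Cxcr4 went from a mean of 8.68 ± 1.15% to 15.6 ± 1.3% (SD, n = 3 each), with 14.2% in its lowest combination library, and Cxcr3 from 7.68, 8.77 and 9.63% to 13.0, 14.5 and 16.8%. The share of Ccr2 was 0.625, 0.504 and 0.567% and then 2.39, 3.15 and 2.28%. Ccr9 went from 5.58, 4.75 and 5.5% to 2.94, 3.97 and 3.63%, and Cxcr5 from 1.27, 1.6 and 1.62% to 1.84, 2.37 and 2.29%. For these 6 receptors the shares of the groups did not overlap, with Ccr7 and Ccr9 lower in the combination. Shares depend on each other and on the length used, and they were not tested. Ccr9 shows how much length matters: its exonic bases number 10260 but its mean protein-coding transcript 3590, and with the latter its mean share was 13.2% and 8.68% in place of 5.28% and 3.51%.

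**Figure D3:**
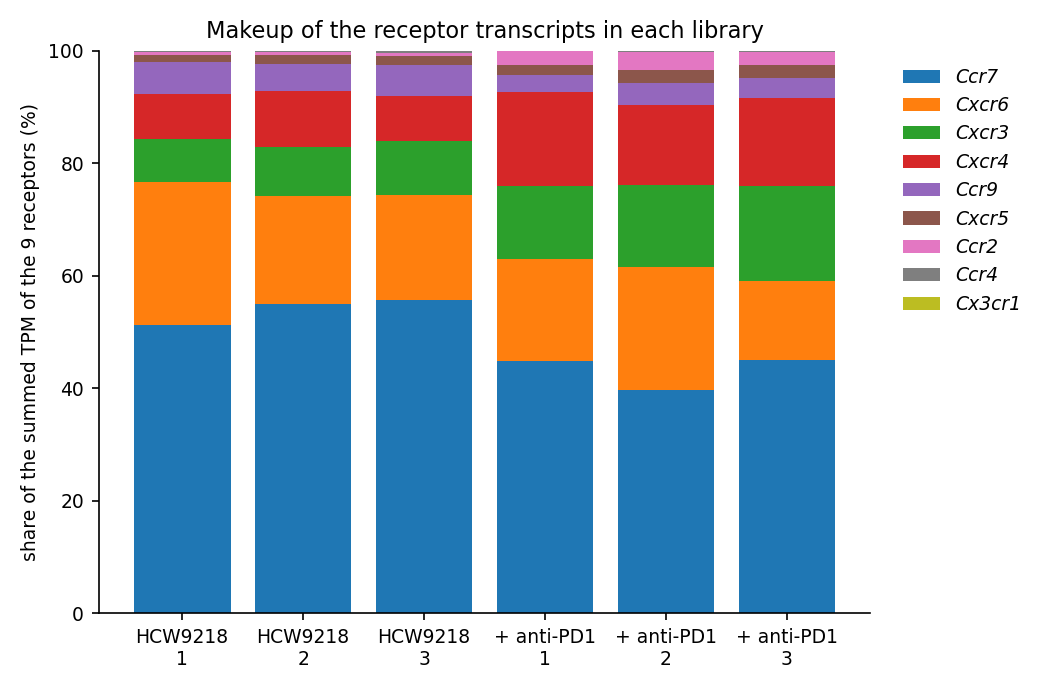
Share of each receptor, in percent, in the summed TPM of the 9 receptors, as stacked bars for each of the 6 libraries (HCW9218 alone, or with anti-PD1 added). Ccr7 holds between 51.3 and 55.6% in monotherapy and between 39.6 and 45.1% in the combination, while Cxcr3, Cxcr4 and Ccr2 hold more in the combination libraries.

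Ratios within a library do not depend on how libraries are scaled. The count ratio of Ccr2 to Ccr7 was 0.0416, 0.0313 and 0.0349 in monotherapy and 0.182, 0.272 and 0.173 in the combination, a difference of 2.52 on the log2 scale. Relative to Ccr7, Cxcr3 differed by 1.09, Cxcr4 by 1.17 and Cxcr6 by 0.09 on the log2 scale. The ranges of the groups were apart for Ccr2, Cxcr3 and Cxcr4 and overlapped for Cxcr6. These counts are not divided by length, so they compare the groups and not the levels of the genes, and they were not tested.

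Among 16 other chemokine receptors reported here, 5 had enough counts to test, and in edgeR 0 rose and 0 fell, with a median log2 fold change of -0.60. By unadjusted p under 0.05, 0 lay higher and 1 lower, and DESeq2 and limma-voom called 0. The lower one was Ccrl2, an atypical receptor that holds the chemoattractant chemerin, at 3.57, 3.0 and 3.84 CPM in monotherapy and 1.94, 2.19 and 1.11 CPM in the combination. Its groups did not overlap, but at -0.99 ± 0.30 (SE) on the log2 scale it did not pass in edgeR (adjusted p = 0.272). Ccr6, a receptor for Ccl20, had -0.60 ± 0.34 (SE), adjusted p = 0.766 in edgeR. Xcr1, a receptor best known on cross-presenting dendritic cells, had 0.46 ± 0.25 (SE), adjusted p = 0.751 in edgeR.

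Of 16 ligands of the 9 receptors, 5 had enough counts to test, 1 fell and 0 rose, with a median log2 fold change of -0.33. The one that fell was Cxcl10, a ligand of Cxcr3. It measured 8.94, 7.80 and 9.63 CPM in monotherapy and 3.28, 2.35 and 1.89 CPM in the combination. Its log2 fold change was -1.81 ± 0.24 (SE), adjusted p = 0.0079 in edgeR, in the opposite direction to its receptor. The call was lost without monotherapy replicate 1 or 3 (-1.79 and -1.74 on the log2 scale, adjusted p 0.0672 and 0.0607 in edgeR). Cxcl9, the other Cxcr3 ligand tested, had -1.08 ± 0.71 (SE), adjusted p = 0.842 in edgeR. Ccl22, a Ccr4 ligand, had -0.33 ± 0.25 (SE) and Ccl25, the Ccr9 ligand, 0.15 ± 0.21 (SE), and neither passed. No ligand of the list was called higher at an unadjusted p under 0.05 or by DESeq2 or limma-voom.

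Signalling genes downstream of the receptors did not pass. Of 28 such genes, from the G protein subunits to the exchange factors that drive cell movement, 27 were tested and in edgeR 0 rose and 0 fell. At an unadjusted p under 0.05 there was 1, Rasgrp2, an activator of the integrin switch Rap1, at 0.37 ± 0.15 (SE) on the log2 scale, and DESeq2 and limma-voom called 0. Rasgrp2 stood at 295, 311 and 315 CPM in monotherapy and 374, 357 and 461 CPM in the combination, adjusted p = 0.55 in edgeR. The median log2 fold change of the 27 was 0.12, with 21 above 0, beside 7549 of 15142 over all genes tested.

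Receptor desensitisation showed 0 calls as well. All 15 of its genes were tested in edgeR, 1 lay higher and 2 lay lower at an unadjusted p under 0.05, and DESeq2 and limma-voom called 0. Rgs2, an RGS protein that shortens G protein signals, stood at 98.9, 78.2 and 65.1 CPM in monotherapy and 62.9, 47.2 and 26.4 CPM in the combination, with no overlap. Its log2 fold change of -0.83 ± 0.28 (SE) did not pass in edgeR (adjusted p = 0.376). Rgs16, of the same family, had -0.78 ± 0.28 (SE), adjusted p = 0.435, and Rgs3 had 0.28 ± 0.12 (SE), adjusted p = 0.618, both in edgeR. The median over the 15 was 0.01.

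**Figure D4:**
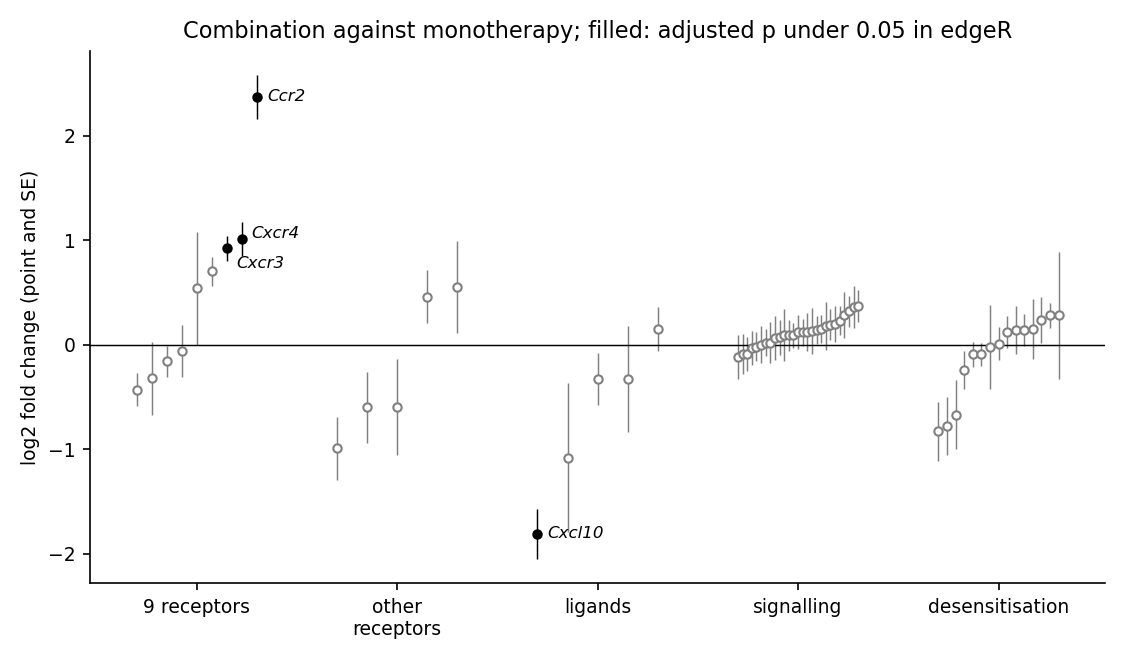
Log2 fold change and SE from the edgeR fit (combination against monotherapy, 3 mice per group) of every tested gene. The genes are those of the 9 receptors, the other chemokine receptors, the ligands, receptor signalling and receptor desensitisation. Filled points passed the test in edgeR. The 4 filled points are Ccr2, Cxcr3, Cxcr4 and, below 0, Cxcl10.

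The genes whose profile over the 6 libraries was most like that of a receptor were found by the root mean square difference of log2 CPM, each profile centred on its mean, among 9007 genes. For Ccr2 these were Gzmm, a granzyme (difference 0.258), S100a6, a calcium-binding protein (0.304), and Klrc1, an inhibitory NK receptor gene (0.314). Gzmm went from 9.1 ± 0.623 to 39.3 ± 11.9 CPM (SD, n = 3 each). Cxcr3 lay nearest to Kif20a, a mitotic kinesin (0.09), Gpc1, a cell surface proteoglycan (0.093), and Fgr, a Src family kinase (0.095). Cxcr4 lay nearest to the NK receptor gene Klrc2 (0.06), to Acot7, an acyl-CoA thioesterase (0.094), and to the checkpoint kinase Chek1 (0.099). Fgr, Klrc2 and Chek1 did not pass in edgeR (adjusted p 0.0604, 0.0556 and 0.103). The other genes named for Ccr2, Cxcr3 and Cxcr4 passed. For Ccr7 the nearest were Alkbh4 (0.021), Parl (0.031) and Bcas2 (0.034), whose log2 fold changes were -0.19, -0.18 and -0.12.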

How the data were processed

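Bulk RNA sequencing of CD8+ T cells from 3 monotherapy and 3 combination mice was used, grouped and numbered by their titles. Trizol RNA, selected with oligo(dT) beads, went into NEBNext Ultra II libraries, per the labels' protocols. The tools were STAR 2.5.2b, featureCounts, Subread 1.5.2 and DESeq2, per the submitters' processing notes. Any information on settings, strand, annotation and genome build is not given in the sources used here. As deposited, the values are read counts per gene, not normalized, identical in both deposited forms for 6 of 6 libraries. Of 12 columns in the series table, 6 fitted no sample title and stayed unused, as did the deposited normalized and regularized-log tables. The coordinates in the deposited files equalled those of GENCODE M21 (GRCm38) for 44737 of 48970 shared genes (91.4%). Where a symbol stood on 2 rows outside the 9 receptors, the row with more counts was taken.

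The counts went into edgeR 4.0.16 (limma 3.58.1, R 4.3.3): filterByExpr by group with a minimum count of 10, TMM factors between 0.9014 and 1.118, and a quasi-likelihood F-test over 15142 genes, adjusted by Benjamini-Hochberg at 0.05. The test was tested on simulated data. The SE of a log2 fold change is its size divided by the square root of F, so it draws on spread shared across genes. CPM uses the scaled totals, and TPM the exonic length in the deposited counts. The labels give no batch. Alternatives were other scalings, DESeq2 1.42.0, limma-voom, no filter or a minimum count of 30, a replicate block, covariates for melanocyte and B cell transcripts, and leaving out libraries. The receptors and all gene lists were chosen with earlier results of these data known. Named were all 9 receptors and, of each pathway list, the genes past the threshold with up to 3 more of the smallest p; for likeness, the 3 nearest genes with a mean of at least 5 CPM, clone-style names and antigen receptor segments excepted. Promoters come from RefSeq (GRCm38.p6), where 7 of 9 receptors were matched. Some genes of the lists are not reported here.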

Additional observations from a re-analysis of the deposited data

How the results depend on the processing

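Ccr2 passed in 17 of 17 tested alternatives, Cxcl10 in 15, Cxcr3 in 14, Cxcr4 in 12 and Cxcr5 in 7. Ccr7, Ccr9, Ccr4 and Cxcr6 passed in 0 of 17 and Cx3cr1 in 0 of 16, as it had too few counts at a minimum count of 30. The called receptors numbered between 1 and 4 when 1 library was left out, with Ccr2 the lone call without monotherapy replicate 1, 2 or 3. The direction of Ccr7 turned to 0.05 with the covariate for Dct and Tyrp1 and to 0.04 without combination replicates 2 and 3. That of Cxcr6 turned to 0.09 and 0.07 under the same settings. With 1 library left out it ran from -0.23 to 0.19, above 0 without monotherapy replicate 1 (0.19) or combination replicate 3 (0.17). Dct and Tyrp1 were high only in combination replicates 2 and 3. The fit with that covariate therefore rests mainly on combination replicate 1, as does the fit without replicates 2 and 3.

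Over all genes, 144 were higher and 20 lower. The numbers were 82 and 7 when scaled to CD8 T cell markers, 284 and 73 in DESeq2, 340 and 113 with no count filter, and 46 and 4 with the B cell covariate. With the covariate for Dct and Tyrp1 99 were lower. Leaving out 1 library gave 32 to 233 higher and 2 to 49 lower: 32 and 4 without monotherapy replicate 1, 49 and 5 without replicate 2, 33 and 2 without replicate 3, 69 and 4 without combination replicate 2, and 233 and 49 without replicate 3. Among the other lists 1 gene fell (Cxcl10), and 3 fell with no count filter and with the replicate block (Cxcl10, Rgs1 and Rgs2); with 1 library left out the number was 0 to 1, at 0 without monotherapy replicate 1 or 3. In the combination, 5 of 9 receptors kept their rank by CPM with no length and in replicate 3 alone. The causes of these changes were not tested. Other scalings moved the median of all genes by at most 0.026 in size.

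Whether same-numbered libraries pair was not settled. Their deviations from the group means correlated at 0.449, -0.546 and 0.651 for replicates 1, 2 and 3 over 5000 genes. Monotherapy replicate 1 correlated best with combination replicate 2 (0.564). Deviations within a group balance out, so these correlations depend on each other and cannot decide the question. With the replicate block 231 genes were higher and 57 lower, and Cxcr5 passed (adjusted p = 0.0192 in edgeR). Counts were lowest for Cx3cr1 (7 to 31 per library) and Ccr4 (36 to 85).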
